A study of Mus musculus with 6 samples.

Results

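Integrins are the receptors through which cells hold on to matrix and to each other, and focal adhesion proteins tie their inner ends to actin. A list of 35 such genes was followed in mouse liver cell cultures, chosen by name and matched to the gene symbols of the deposited counts. All 35 were found among 40879 symbols. They comprise 4 leukocyte integrin subunits (Itgal, Itgam, Itgax and Itgb2), 18 other integrin subunits treated here as matrix-binding, and 13 adaptors and kinases of focal adhesions. The cultures were primary hepatic stellate cells of wild-type male mice, the retinoid-storing pericytes of the liver. Of these, 3 libraries came from cells kept for 24 h with APB-R3, an engineered IL-18 binding protein, and 3 from cells kept for the same time with vehicle. The dose of APB-R3 is labelled 150, in µg/ml in one place and in µg/kg in another, so its unit is uncertain. The labels do not say whether the replicates of a group were separate animals or cultures, and every p-value here rests on the spread of these libraries alone, which may be technical.

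An integrin is a pair of an α and a β chain, and the pairing decides what the cell can bind: laminins, collagens, the RGD sequence of fibronectin and vitronectin, or the ICAM proteins of other cells. Talin and kindlin bind the short inner tail of the β chain and switch the receptor on. Vinculin, paxillin, zyxin and the complex of Ilk, Pinch and parvin then join it to actin, while the kinases Fak and Src carry the signal. In liver fibrosis, αv integrins of stellate cells are known as activators of latent TGF-β.

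The libraries held between 8323809 and 10792531 counts, the lowest total being that of APB-R3 replicate 1. RNA was counted near the 3' end, with 1 fragment read per transcript, so CPM, counts scaled to the same library total, are compared between genes without division by length. The cultures went only in part with their label. The 12 endothelial markers summed to between 6149 and 7083 CPM in APB-R3 libraries and between 6523 and 7300 CPM in vehicle libraries, with the sinusoidal receptor Lyve1 at 1715 CPM on average. The 12 stellate cell markers summed to between 666 and 710 CPM with APB-R3 and between 688 and 754 CPM with vehicle. Levels differed widely within this list, from 0.131 CPM on average for Ngfr to 308 CPM for Dcn. Col1a1 averaged 139 CPM and Acta2 114 CPM, while Lrat, the retinol-esterifying enzyme of quiescent stellate cells, had 102 counts in all 6 libraries. Acta2 had 103, 108 and 80.6 CPM with APB-R3, against 133, 131 and 129 CPM with vehicle, without overlap. Its log2 fold change was -0.43 (SE 0.11, edgeR unadjusted p = 0.0008, adjusted p = 0.9998), so it did not pass. Groups were apart in 8.91% of all genes tested. The 12 macrophage markers summed to between 469 and 679 CPM with APB-R3 and between 403 and 586 CPM with vehicle. All values are therefore those of mixed cultures, in which fewer cells of a type and less RNA per cell cannot be told apart. Vehicle replicate 2 stood apart in hepatocyte markers, whose sum was 91.5 CPM there and at most 14.8 CPM in any other library.

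No member passed the test for a change with APB-R3. Of the 35, 31 had enough counts, and 0 passed edgeR's quasi-likelihood test of APB-R3 against vehicle at an adjusted p under 0.05, where 0 of all 12776 genes passed (0%). DESeq2 and limma-voom also called 0 members, and edgeR called 0 members without vehicle replicate 2 as well. At an unadjusted p under 0.05 edgeR counted 1 member, Itgb2, beside 425 of all genes tested (3.33%). DESeq2 and limma-voom counted the same gene alone among the members, beside 376 (2.94%) and 427 (3.34%) of all genes. The 3 APB-R3 libraries lay wholly apart from the 3 vehicle libraries in 2 members, Itgb2 and Parva, both lower with APB-R3. That is 6.45% of the 31, against 8.91% of all genes tested, of which 4.75% were higher and 4.16% lower with APB-R3 without overlap. Over the 31 the median log2 fold change was -0.059, with 11 members above and 20 below 0, or 64.5% below, where 49.3% of all genes tested were below 0.

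Among the integrins, transcripts of the shared β1 chain were the most abundant by far. Itgb1 had 1027, 1213 and 1254 CPM in APB-R3 libraries and 1237, 1283 and 1135 CPM in vehicle libraries. The lowest value was that of APB-R3 replicate 1, and the other APB-R3 libraries lay among the vehicle ones. The log2 fold change was -0.07 (SE 0.09, edgeR adjusted p = 0.9998), and it turned to 0.0046 without APB-R3 replicate 1. Itgb1 stood above 99.4% of the genes tested by its level over the 6 libraries.

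The laminin receptor chain α6 led the α subunits. Itga6 had 206, 256 and 239.8 CPM with APB-R3 and 254, 245 and 248 CPM with vehicle. The groups overlapped, again with APB-R3 replicate 1 lowest. Itga9, a chain that binds tenascin C, osteopontin and VCAM-1, had 83.0, 80.3 and 98.8 CPM with APB-R3 and 88.0, 85.7 and 80.6 CPM with vehicle. Itga3, which also pairs with β1 to bind laminins, had 53.0, 53.3 and 57.0 CPM with APB-R3, against 65.8, 56.5 and 60.9 CPM with vehicle. Only vehicle replicate 2 fell within the APB-R3 range, and the log2 fold change of Itga3 was -0.17 (SE 0.11, edgeR adjusted p = 0.9998), keeping its sign in every alternative run. The levels of Itga6, Itga9 and Itga3 kept this order, without overlap, over the 6 libraries.

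**Figure D1:**
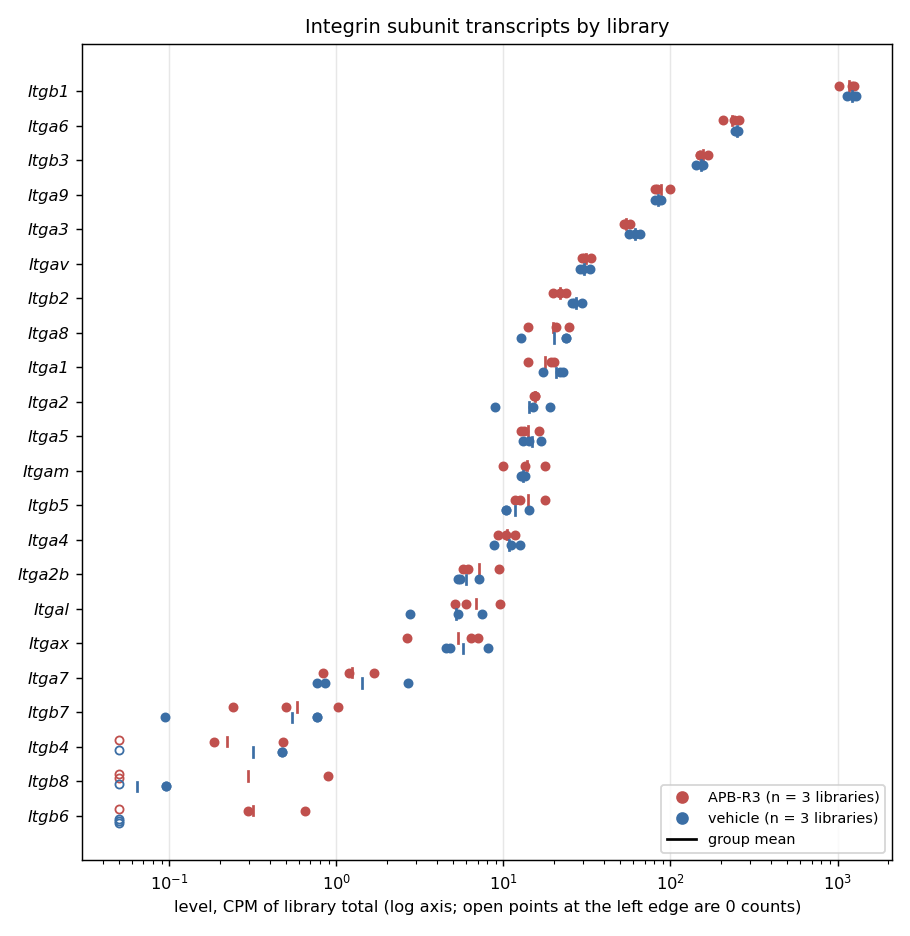
Levels of the 22 integrin subunits in each library, in CPM of the library total on a log axis, with APB-R3 libraries above vehicle libraries and a short line at each group mean. Genes run down by their mean over the 6 libraries, from Itgb1 at 1191 CPM to Itgb6 at 0.158 CPM, and APB-R3 and vehicle points overlap for every subunit drawn with counts in both groups other than Itgb2.

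Against its α partners the β1 chain was in excess in 3' counts, and whether each gene was captured equally was not tested. The 10 α chains of this list that can pair with β1 summed to 444, 500.4 and 512 CPM with APB-R3 and to 518, 496 and 507 CPM with vehicle. Itgb1 thus had 2.395 ± 0.0732 times their summed level with APB-R3 and 2.404 ± 0.176 times with vehicle (SD, n = 3 each). Of the α sum, Itga6 made up 48.1% ± 2.65 with APB-R3 and 49.1% ± 0.282 with vehicle, Itga9 made up 18.02% ± 1.73 with APB-R3 and 16.7% ± 0.730 with vehicle, and Itga3 made up 11.2% ± 0.649 with APB-R3 and 12.03% ± 0.656 with vehicle. The groups overlapped in each of these shares.

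The β3 chain showed a wider gap. Itgb3, the partner of αv and αIIb in receptors for vitronectin and fibrinogen, had 149.8, 149.6 and 167 CPM with APB-R3 and 155, 157 and 143 CPM with vehicle. Its partner Itgav had 29.4, 30.4 and 33.5 CPM with APB-R3 and 33.0, 28.6 and 30.1 CPM with vehicle. The platelet chain αIIb, from Itga2b, had 5.77, 9.36 and 6.15 CPM with APB-R3 and 7.09, 5.49 and 5.33 CPM with vehicle. Itgb3 reached 4.08 ± 0.271 times the sum of both α chains with APB-R3 and 4.18 ± 0.395 times with vehicle (SD, n = 3 each). Groups overlapped in all these values. The platelet markers Gp1ba and Ppbp were near 0, with 9 and 28 counts over the 6 libraries, and Gp6 had 0, while Pf4, which macrophages also make, averaged 19.7 CPM. Their part in the Itga2b level was not tested.

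Of the αv partners other than β1 and β3, β5 was low and β6 and β8 were hardly counted. Itgb5, a vitronectin receptor chain, had 11.8, 12.5 and 17.7 CPM with APB-R3 and 14.2, 10.4 and 10.4 CPM with vehicle. Its log2 fold change of 0.26 (SE 0.22, edgeR adjusted p = 0.9998) rested largely on APB-R3 replicate 3 and was 0.067 without it. Itgb6 and Itgb8, the chains of the TGF-β-activating receptors αvβ6 and αvβ8, were below the count filter. Itgb6 had 0, 7 and 3 counts with APB-R3 and 0, 0 and 0 with vehicle, where a count of 0 allows up to 0.0952 CPM over the group, counting error only. Itgb8 had 0, 0 and 9 counts with APB-R3 and 1, 0 and 1 with vehicle, nearly all from APB-R3 replicate 3.

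The chains for fibronectin and collagen, and the stellate cell chain α8, lay between 8 and 25 CPM. Itga5, the α chain of the main fibronectin receptor, had 16.2, 13.2 and 12.8 CPM with APB-R3 and 16.9, 13.2 and 14.2 CPM with vehicle. Itga8, known from stellate cells and other mesenchyme, had 13.9, 20.7 and 24.7 CPM with APB-R3 and 12.7, 23.6 and 23.6 CPM with vehicle. In both groups replicate 1 was the low library of Itga8, and the group means lay far closer together than the libraries of either group. The collagen receptor chain Itga1 had 14.1, 20.2 and 19.3 CPM with APB-R3 and 17.3, 22.8 and 21.7 CPM with vehicle. The other collagen receptor chain, Itga2, had 15.5, 15.2 and 15.4 CPM with APB-R3, against 14.95, 8.89 and 19.0 CPM with vehicle. The spread of Itga2 over the vehicle libraries was thus many times that over the APB-R3 libraries, and both group means lay within it.

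Of the remaining chains of this list Itga4 averaged 10.6 CPM over the 6 libraries, and the others had few counts. Itga4, which binds fibronectin and VCAM-1 and is carried by many leukocytes, had 11.7, 10.4 and 9.33 CPM with APB-R3 and 12.6, 11.1 and 8.76 CPM with vehicle. Its lymphocyte partner Itgb7 was below the filter, with 2, 11 and 5 counts with APB-R3 and 8, 1 and 8 with vehicle. The hemidesmosome chain Itgb4, the epithelial partner of α6, had 4, 2 and 0 counts with APB-R3 and 0, 5 and 5 with vehicle, far below the β1 level. Itga7, a laminin receptor chain of muscle, passed the filter with 14, 9 and 12 counts with APB-R3 and 28, 9 and 8 with vehicle. Its log2 fold change of -0.23 turned to 0.59 without vehicle replicate 1, and its interval was the widest of all members.

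The leukocyte integrins share the β2 chain, which pairs with αL to bind ICAM-1, with αM to bind ICAM-1, fibrinogen and the complement fragment iC3b, and with αX. They were a small part of the integrin transcripts. Their sum was 48.3, 41.2 and 53.7 CPM with APB-R3 and 51.3, 49.2 and 53.2 CPM with vehicle, where the matrix-binding chains summed to 1639, 1887 and 1958 CPM with APB-R3 and to 1932, 1953 and 1802 CPM with vehicle. Leukocyte chains thus took 2.56% ± 0.375 of all integrin CPM with APB-R3 and 2.64% ± 0.211 with vehicle (SD, n = 3 each). The log2 ratio of the leukocyte to the matrix-binding sum averaged -5.26 ± 0.225 with APB-R3 and -5.21 ± 0.117 with vehicle, a difference of -0.053 that was smaller than either SD. With libraries left out the difference ran from -0.19, without APB-R3 replicate 1 and vehicle replicate 2, to 0.0731, without APB-R3 replicate 2, and it was 0.0105 without vehicle replicate 3. The median log2 fold change was -0.019 over the 4 leukocyte chains and -0.036 over the 14 matrix-binding chains tested, beside 0.0032 over all genes tested. With other settings and libraries left out these medians ran from -0.12 to 0.081 and from -0.059 to 0.051.

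Among the leukocyte chains the β2 subunit was the one whose libraries separated by group. Itgb2 had 21.9, 19.7 and 23.6 CPM with APB-R3, against 26.4, 25.7 and 29.6 CPM with vehicle. All 3 APB-R3 libraries were below all 3 vehicle libraries. The log2 fold change of Itgb2 was -0.33 (SE 0.15, 95% interval from -0.64 to -0.021), with an unadjusted p of 0.0377 and an edgeR adjusted p of 0.9998 over all genes, so the gene did not pass. Over all alternatives this fold change ran from -0.38 to -0.27, always with the same sign, and the unadjusted p ran from 0.0344 to 0.132. It was above 0.05 without APB-R3 replicate 1 or 2, without vehicle replicate 1 or 3, and without APB-R3 replicate 1 and vehicle replicate 2 together.

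In the α partners of β2 the groups overlapped, and no test set their fold changes against that of Itgb2. Itgam, the αM chain of macrophages and neutrophils, had 17.8, 10.01 and 13.5 CPM with APB-R3 and 12.9, 12.7 and 13.5 CPM with vehicle. Its vehicle libraries lay close together and its APB-R3 libraries spread to both sides of them, and the log2 fold change of 0.06 turned to -0.17 without APB-R3 replicate 1. Itgal, the αL chain of lymphocytes and monocytes, had 6.01, 5.10 and 9.53 CPM with APB-R3 and 7.48, 2.74 and 5.33 CPM with vehicle. Itgax, the αX chain used as a dendritic cell marker and found on macrophages, had 2.64, 6.39 and 7.05 CPM with APB-R3 and 4.51, 8.04 and 4.76 CPM with vehicle. The log2 fold change was 0.40 (SE 0.35) for Itgal and -0.10 (SE 0.36) for Itgax, each with an edgeR adjusted p of 0.9998, and that of Itgal was 0.76 without vehicle replicate 1, 0.11 without vehicle replicate 2 and 0.10 without APB-R3 replicate 3. That of Itgax turned to 0.20 without APB-R3 replicate 1 and to 0.23 without vehicle replicate 2.

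Set against its own α chains, Itgb2 had 0.827, 0.918 and 0.785 times the summed level of Itgal, Itgam and Itgax with APB-R3, and 1.06, 1.10 and 1.25 times with vehicle. The groups did not overlap, and the log2 ratio differed by -0.43, or by -0.49 to -0.36 with libraries left out. This ratio was chosen after the values were seen and is given without a test. Itgb2 and its α chains were near parity in 3' counts in both groups, unlike Itgb1 and Itgb3.

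**Figure D2:**
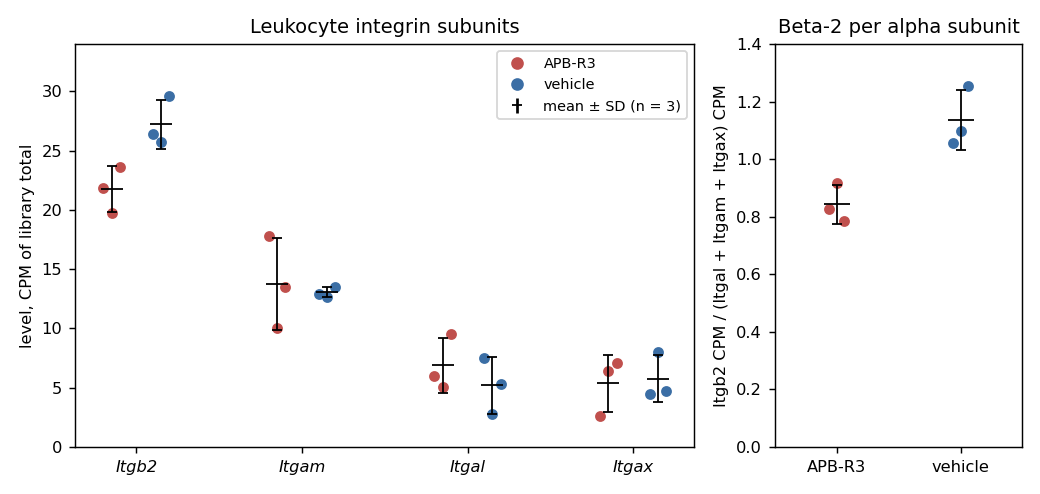
Left, levels of the 4 leukocyte integrin subunits in CPM of the library total; right, the ratio of Itgb2 to the sum of Itgal, Itgam and Itgax. Points are libraries, bars are mean ± SD of 3 libraries, and Itgb2 and the ratio are the values in which the APB-R3 points lie wholly below the vehicle points.

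Markers of leukocytes were read beside these chains. Cd68, a lysosomal protein of macrophages, averaged 77.4 CPM over the 6 libraries and ranged from 62.8 to 87.7 CPM. Itgb2 was 0.293, 0.314 and 0.269 times Cd68 with APB-R3 and 0.333, 0.320 and 0.371 times with vehicle, without overlap. The levels of Itgb2 alone already lay apart by group, so this ratio is not a separate result. It was not among the planned comparisons and is given without a test. Cd68 is 1 of the 12 macrophage markers, and ratios of Itgb2 to the others were not taken. Fitted log2 fold changes of the first 3 markers did not share a direction, with 0.17 for Adgre1, 0.55 for Clec4f and -0.10 for Cd68. The leukocyte integrin sum was 0.103, 0.0867 and 0.0791 times the macrophage marker sum with APB-R3 and 0.101, 0.0839 and 0.132 times with vehicle, with overlap. Of the 10 neutrophil markers 4 had 0 counts in all libraries, Ly6g among them, and the sum ran from 2.41 to 4.47 CPM with APB-R3 and from 0.952 to 9.97 CPM with vehicle. Of the 12 lymphocyte markers 5 had 0 counts, Cd3e and Cd8a among them. Their sum ran from 1.99 to 2.22 CPM with APB-R3 and from 0.476 to 1.44 CPM with vehicle, most of it Klrb1c, a receptor of natural killer cells that is named after its values were seen. Dendritic cell markers summed to between 46.6 and 52.8 CPM with APB-R3 and between 49.5 and 53.1 CPM with vehicle, with 3 of 8 at 0 and Flt3 at 11 counts. Zbtb46, which endothelium also expresses, averaged 38.9 CPM over the 6 libraries, Batf3 6.73 CPM and Clec9a 4.35 CPM. The part of any of these cells in the integrin levels was not tested.

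The promoter of Itgam is shown as the regulatory sequence of the leukocyte set, since the human αM promoter is known to bind PU.1, the ETS factor of myeloid cells, at a purine-rich site. The window is chr7:128062530-128062639 of GRCm38.p6, plus strand, from RefSeq, and covers the 110 bases before the start of the gene. Capitals mark the motif GAGGAA on either strand.
Itgam: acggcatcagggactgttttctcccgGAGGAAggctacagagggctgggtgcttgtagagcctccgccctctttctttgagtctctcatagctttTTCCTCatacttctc
The motif occurs 2 times in this stretch, on the plus strand starting 84 bases before the start and on the minus strand ending 10 bases before it. It was found in 28.3% of all 32851 windows of 250 bases before to 50 bases after a start, on either strand, so the motif is common. Of the leukocyte chains Itgam and Itgax had a window in the RefSeq table, and Itgax held no GAGGAA. Among the matrix-binding chains 7 of 16 windows held it, Itgb1 and Itgav among them.

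**Figure D3:**
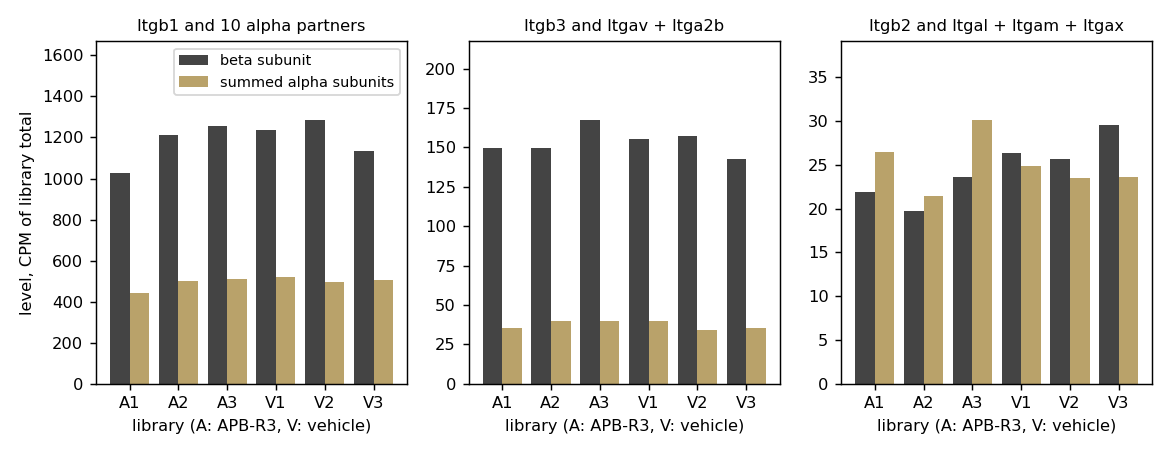
Levels of 3 β subunits (dark bars) and of the summed α subunits that pair with them (light bars) in each library, in CPM of the library total, with APB-R3 libraries (A) left of vehicle libraries (V). Itgb1 and Itgb3 exceed their α sums in all 6 libraries, while Itgb2 lies below its α sum in the 3 APB-R3 libraries and above it in the 3 vehicle libraries.

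Among the proteins that switch integrins on, the widely expressed forms prevailed. Tln1, talin 1, had 352, 381 and 379.9 CPM with APB-R3 and 373, 382 and 425 CPM with vehicle. Tln2, its relative of muscle and brain, had 3.604, 6.12 and 5.46 CPM with APB-R3 and 5.46, 6.43 and 6.09 CPM with vehicle, so Tln1 was 76.5 ± 18.7 times as abundant with APB-R3 and 65.8 ± 5.59 times with vehicle (SD, n = 3 each). Fermt2, the kindlin of mesenchyme and endothelium, had 256, 283 and 265 CPM with APB-R3 and 267, 255 and 237 CPM with vehicle. Fermt3, the kindlin of blood cells, which β2 integrins need in leukocytes, had 16.9, 28.45 and 26.1 CPM with APB-R3 and 16.5, 28.6 and 21.0 CPM with vehicle. Replicate 1 was the low library of Fermt3 in both groups. Fermt2 exceeded Fermt3 by 11.7 ± 2.92 times with APB-R3 and 12.1 ± 3.72 times with vehicle. Groups overlapped in all of these.

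The complex of Ilk, Pinch and parvin sits at the β tail. Of its genes in the main list, Parva averaged 94.9 CPM, Ilk 72.4 CPM and Lims1 61.5 CPM over the 6 libraries. Another parvin gene, Parvb, was read with the wider lists and averaged 138 CPM, above each of these. Parvg and Lims2, also of the wider lists, averaged 4.01 and 4.33 CPM. Levels of the parts of the complex were therefore not alike. Parva, the actin-binding α-parvin, had 94.3, 87.1 and 89.7 CPM with APB-R3, against 96.4, 102 and 99.8 CPM with vehicle. The groups did not overlap. The log2 fold change of Parva was -0.14 (SE 0.10, edgeR adjusted p = 0.9998), and it ran from -0.18 to -0.11 over all alternatives. Ilk, the pseudokinase that gives the complex its name, had 82.1, 55.8 and 77.4 CPM with APB-R3 and 73.8, 60.1 and 85.4 CPM with vehicle, with replicate 2 lowest in both groups. Lims1, which encodes Pinch 1, had 52.1, 56.8 and 72.2 CPM with APB-R3 and 63.9, 60.2 and 63.8 CPM with vehicle.

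The actin linkers and signalling members also overlapped between groups. Vcl, vinculin, which couples talin to actin under tension, had 60.2, 59.6 and 70.3 CPM with APB-R3 and 66.9, 68.6 and 74.1 CPM with vehicle, a log2 fold change of -0.15 (SE 0.11, edgeR adjusted p = 0.9998). Pxn, the scaffold paxillin, had 127, 105 and 123 CPM with APB-R3 and 134, 109.7 and 156 CPM with vehicle. Its log2 fold change of -0.17 (SE 0.12, edgeR adjusted p = 0.9998) was -0.0489 without vehicle replicate 3, the highest library, -0.28 without vehicle replicate 2 and -0.34 without both vehicle replicate 2 and APB-R3 replicate 1. In the last of these fits the unadjusted edgeR p of Pxn was 0.00375. Fermt3 was there also under 0.05, at 0.00879, but in the other direction, with a log2 fold change of 0.54. No member passed in this fit. Zyx, zyxin, which goes to stretched actin fibres, had 73.4, 82.7 and 79.2 CPM with APB-R3 and 82.7, 73.0 and 84.8 CPM with vehicle. Ptk2, the focal adhesion kinase, had 82.3, 96.5 and 80.0 CPM with APB-R3 and 84.5, 76.8 and 93.3 CPM with vehicle. Bcar1, the Src substrate p130Cas, was the steadiest member, with 221, 205 and 206 CPM with APB-R3 and 219, 214 and 222 CPM with vehicle. Src had 13.8, 9.54 and 11.6 CPM with APB-R3 and 15.9, 11.2 and 12.7 CPM with vehicle. The median log2 fold change over the 13 focal adhesion genes was -0.061, with 10 of 13 below 0, where 49.3% of all genes tested were below 0.

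**Figure D4:**
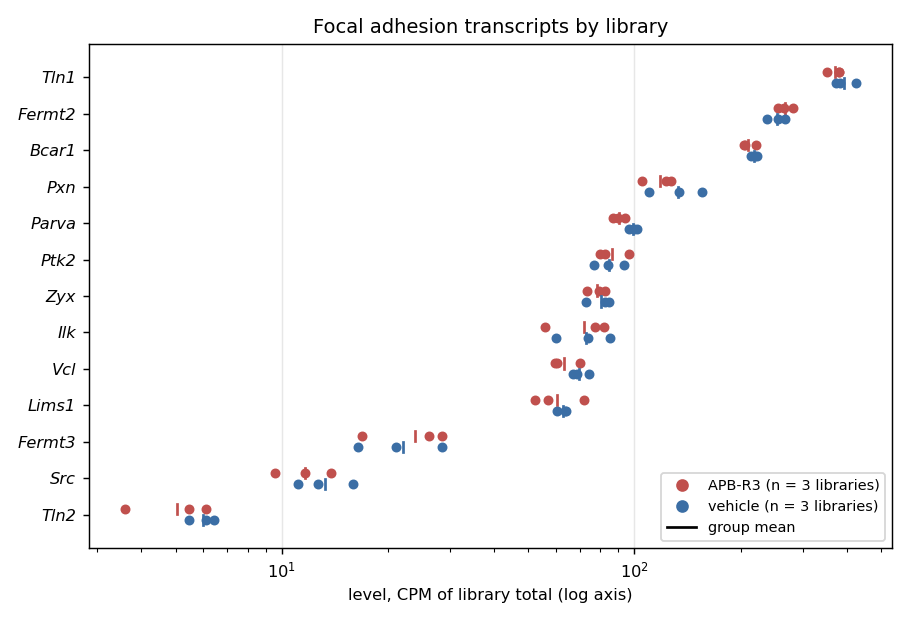
Levels of the 13 focal adhesion genes in each library, in CPM of the library total on a log axis, with APB-R3 libraries above vehicle libraries and a short line at each group mean. Tln1 lies highest, at 382 CPM over the 6 libraries, and Parva is the gene in which the APB-R3 points lie wholly below the vehicle points.

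The promoters of Vcl and Fermt2 are shown because both hold a CArG box, the site of serum response factor, which with its MRTF partners is a known regulator of genes for actin and adhesion. Each window covers 250 to 171 bases before the start, in GRCm38.p6 from RefSeq, and capitals mark the box. The Vcl window is chr14:20929148-20929227 on the plus strand and the Fermt2 window is chr14:45530236-45530315 on the minus strand.
Vcl: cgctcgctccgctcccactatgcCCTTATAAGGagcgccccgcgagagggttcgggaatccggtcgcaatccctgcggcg
Fermt2: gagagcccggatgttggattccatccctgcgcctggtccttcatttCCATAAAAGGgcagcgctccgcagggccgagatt
The box, which reads as a match on both strands, was found in 1.63% of all windows and in 3 of the 31 windows of 25 members, the other gene being Itgb6. Vcl and Fermt2 did not share a direction, with log2 fold changes of -0.15 and 0.08. A match is a description of the letters and shows no binding.

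How far a change in the RNA of the whole cultures could have gone unseen is given by the intervals. They rest on the spread of these libraries and do not bound a change within a single cell type of the mixed cultures. The 95% interval, taken gene by gene, lay within 1.5-fold in both directions for 22 of the 31 members, or 71.0%, where 58.4% of all genes tested did, and within 2-fold for 29 of the 31, where 78.0% of all genes did. The median level of the tested members was 30.8 CPM, against 21.4 CPM for all genes tested. For Itgb1 the interval ran from -0.26 to 0.11, for Itgb3 from -0.17 to 0.23, for Itgav from -0.26 to 0.30 and for Ptk2 from -0.21 to 0.25. The 2 outside the 2-fold bound were Itgal, from -0.33 to 1.14, and Itga7, from -1.63 to 1.18.

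**Figure D5:**
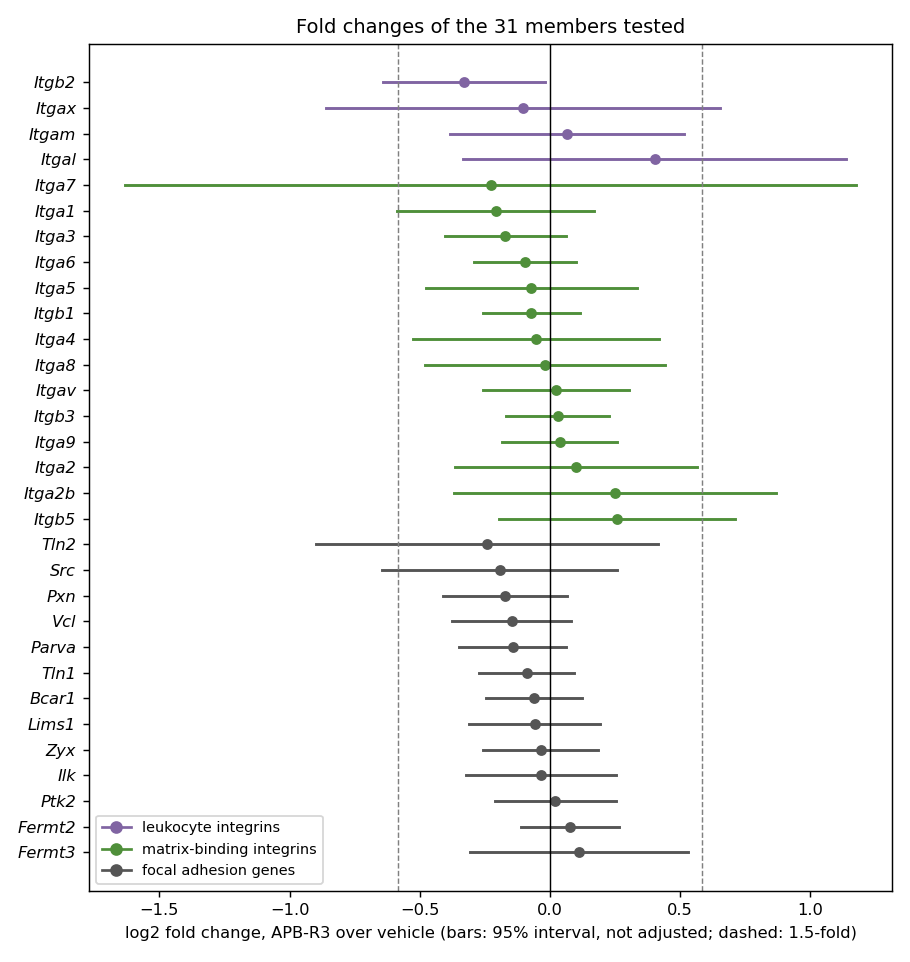
Log2 fold changes of APB-R3 over vehicle for the 31 members tested, with 95% intervals taken gene by gene; dashed lines mark 1.5-fold. Of all members drawn, Itgb2 is the one whose interval leaves out 0, ending at -0.021, and none passed the test over all genes.

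Libraries of a group varied more than counting alone would give. The within-group coefficient of variation had a median of 13.3% over the 31 members, where counting error alone would give 5.66%, and over all genes tested the medians were 14.3% and 6.79%. It was 7.41% for Itgb2 and 39.3% for Itgax, and lowest for Bcar1 at 3.63%. Some members may share reads with a neighbour. In GENCODE M21 the last kb of Itga4, Itga7, Vcl, Ilk and Fermt3 overlap an exon of a gene on the other strand (Cerkl, Mettl7b, Ap3m1, Taf10 and Trpt1), and no source used here gives the strand setting of the counting. Itgam and Itga1 share exons with Gm49368 and Gm49395 on their own strand, but outside their last kb. Whether this touched their counts was not tested.

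The wider adhesion machinery was read from 4 further lists with 85 genes, of which 78 were tested and 0 passed edgeR's test. At an unadjusted p under 0.05 there were 2, Col1a2 and Postn, where 3.33% of all genes were. Of the other integrin subunits Itga11, the collagen receptor chain of fibroblasts, and Itgad had 0 counts, which allows up to 0.0494 CPM over the 6 libraries. Itga10 had 1.80, 1.85 and 2.08 CPM with APB-R3 and 1.92, 3.12 and 3.33 CPM with vehicle. Among 28 adaptors and actin linkers tested, 11 had higher and 17 lower fitted values with APB-R3 (median log2 fold change -0.012). The smallest p was that of Lims2, Pinch 2, with 4.81, 6.12 and 4.96 CPM with APB-R3, against 1.73, 4.35 and 3.997 CPM with vehicle. All 3 APB-R3 libraries of Lims2 lay above the vehicle ones, with a log2 fold change of 0.65 (SE 0.39, edgeR adjusted p = 0.9998) that ran from 0.34, without vehicle replicate 1, to 0.95, without APB-R3 replicate 1 and vehicle replicate 2. Groups were also apart in Rsu1 and Lpxn, both lower with APB-R3, so that 10.7% of the 28 did not overlap, against 8.91% of all genes. Rsu1, which binds Pinch, had a log2 fold change of -0.14 (SE 0.095), and Lpxn, the paxillin relative leupaxin, one of -0.47 (SE 0.37), both named after their values were seen.

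Among 27 genes of adhesion signalling and integrin activation, 14 had higher and 13 lower fitted values with APB-R3 (median 0.015). Among 22 ligands and counter-receptors tested, 10 had higher and 12 lower fitted values (median -0.012). Col1a2, a chain of the collagen bound by α1β1 and α2β1, had 94.7, 107 and 126 CPM with APB-R3, against 126, 141 and 122 CPM with vehicle, with the highest APB-R3 library inside the vehicle range. Its log2 fold change of -0.25 (SE 0.11, edgeR adjusted p = 0.9998) ran from -0.35 to -0.086 with libraries left out. Postn, a matricellular ligand of αv integrins named after its values were seen, had 7.45, 8.80 and 8.14 CPM with APB-R3, against 14.7, 11.0 and 9.33 CPM with vehicle. All 3 APB-R3 libraries of Postn lay below the vehicle ones, with a log2 fold change of -0.52 (SE 0.24, edgeR adjusted p = 0.9998).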

How the data were processed

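Whole-number read counts per gene were deposited by the authors, 1 file per library, not normalized. Per the labels' protocols, Lexogen QuantSeq 3' libraries were made from 500 ng of RNA. Per the submitters' processing notes, bcl2fastq 2.20.0.422, fastp, STAR and HTSeq were used with GRCm39; no source used here gives the other versions, the annotation, the strand setting or any molecular identifiers. Headers inside the files carry numbers that differ from the titles, and groups and replicate numbers were taken from the titles. No 2 libraries had counts as close as sampling noise would make them (chi-square per degree of freedom 5.54 to 13.6).

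The comparison of APB-R3 with vehicle used edgeR 4.0.16 under R 4.3.3, with filterByExpr (minimum count 10, minimum total 15), TMM factors, glmQLFit and glmQLFTest, treatment only, over 12776 of 20496 genes with a count. Adjusted p-values are two-sided Benjamini-Hochberg values over all genes tested, with a threshold of 0.05. SE is the log2 fold change over the root of F. Levels are CPM of the library total. DESeq2 1.42.0, limma 3.58.1 (voom), other scalings and filters, a replicate block and left-out libraries were alternatives. Floors at 0 use 3 counts over the group and cover counting error only, while 95% intervals of fold changes come from the edgeR fit, gene by gene. The edgeR script was tested on simulated counts. The members and lists were chosen with earlier results of these data known. All 35 members are named; from each pathway list, passing genes or else the smallest p (1 such gene is not reported here); from each marker list, its leading genes. Promoters were matched by symbol in RefSeq for GRCm38.p6, another build than that of the counts, and 25 of 35 members matched. GENCODE M21 served for overlaps of genes only.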

Additional observations from a re-analysis of the deposited data

How the results depend on the processing

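Over 14 alternatives 0 members passed in any, the lowest edgeR, DESeq2 or limma adjusted p of a member being 0.902. The number of all genes called was 0 in 12 alternatives, 20 with no low-count filter (8 higher and 12 lower) and between 0 and 1 with libraries left out, the 1 being without vehicle replicate 3. The replicate block called 0 genes and 0 members and had 539 genes at an unadjusted p under 0.05. The replicate numbers did not pair the samples by the rule used, with correlations of 0.0399, 0.0460 and 0.0664 between same-numbered libraries against a limit of 0.1, though each was above that with any other number. The difference in the log2 ratio of leukocyte to matrix-binding chains was -0.053 in the main run and ran from -0.19 to 0.0731. Each end lay further from the main value than the vehicle SD of 0.117 and less far than the APB-R3 SD of 0.225.

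Of the 31 members, 12 kept their sign in every alternative: Itgal, Itgb2, Itga3, Itga6, Itgb5, Tln1, Vcl, Pxn, Parva, Fermt2, Src and Bcar1. In the other 19 the sign turned, in all cases of uncalled values, and the cause was not tested. With libraries left out the log2 fold change ran from -0.18 to 0.25 for Itgam and from -0.33 to 0.53 for Itgax. It ran from -0.32 to 0.018 for Itga1, -0.15 to 0.36 for Itga2, -0.012 to 0.39 for Itga2b, -0.19 to 0.065 for Itga4 and -0.25 to 0.033 for Itga5. It ran from -0.77 to 0.59 for Itga7, -0.26 to 0.32 for Itga8, -0.048 to 0.089 for Itga9 and -0.023 to 0.077 for Itgav. For β chains it ran from -0.12 to 0.055 for Itgb1 and from -0.017 to 0.086 for Itgb3. For focal adhesion genes it ran from -0.41 to 0.0023 for Tln2, -0.075 to 0.090 for Ptk2, -0.088 to 0.0028 for Zyx, -0.26 to 0.12 for Ilk, -0.19 to 0.027 for Lims1 and -0.063 to 0.54 for Fermt3. With limma-voom Itga8 was at 0.023. Depth limits Itga7, Itgb4, Itgb6, Itgb7 and Itgb8 most, each with fewer than 100 counts in all.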
